A study of Mus musculus with 2 samples.

Results

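Lysosomes are the acidic organelles in which macrophages break down the protein, sugar and lipid that they take up or recycle. A proton pump, the V-ATPase, acidifies them, soluble hydrolases work inside them, and membrane proteins line them and move lipids and ions across the boundary. The related transcription factors TFEB, TFE3 and MITF bind a short motif, the CLEAR element, in the promoters of many lysosomal genes. The 37 genes described here were chosen by name to cover these roles: 10 proteases, 8 glycosidases and sulfatases, 6 lipid hydrolases and lipid carriers, 5 membrane proteins, 5 proton pump subunits and 3 transcription factors. Each had a probe on the array, and 36 of the 37 were measured on both arrays, of 16885 genes measured in all.

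The gene microarray compared RAW264.7 cells given vehicle control with RAW264.7 cells given IR-61, both for 24 h. RAW264.7 is an established macrophage line from an ascites tumor that the Abelson murine leukemia virus induced in an adult male BALB/c mouse, and both conditions share this background. IR-61 is a near-infrared heptamethine cyanine dye that goes to mitochondria, and its dose was given as 10 μM. Each condition had 1 array of total RNA, so the spread between cultures is unknown, and the conditions were compared without a test.

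Values are spot intensities from the scanner on a linear scale, or their log2 less the 75th percentile of their array. That percentile was 0.49 higher with IR-61 on the log2 scale, so an intensity can be higher with IR-61 while the scaled level is lower. All differences below are IR-61 minus vehicle on the scaled log2 scale unless stated otherwise. Their error is an SD expected from the spread between repeated spots of one probe, which covers noise within an array only. It was 0.094 for 34 of the 36 genes, 0.23 for the dim *Arsb* and 0.030 for *Gusb*, which was printed in 10 spots. Levels of different genes cannot be ranked, since each probe binds its target differently.

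The labelled cell type was checked against markers. Of 10 macrophage markers 9 had a named probe, and all 9 were well above background on both arrays, with vehicle intensities of 1002 to 120586 and IR-61 intensities of 790 to 149992. Their summed intensity was 325459 and 525048 before scaling, which includes the upward shift of the IR-61 array. Scaled, the 9 differed by −0.83 for *Spi1* to 1.08 for *Aif1*, with a median of −0.09. All 5 fibroblast markers were also well above background, *Col1a1*, *Col1a2*, *Col3a1*, *Pdgfra* and *Dcn*, with a summed intensity of 64731 with vehicle and 110195 with IR-61. Their scaled differences ran from −0.34 for *Col3a1* to 0.62 for *Col1a1*. The median was 0.10, as for all measured genes. For the 5 T cell markers, of which 4 were above background, the sums were 2112 and 3064, and for the 5 B cell markers 907 and 746. For the 5 epithelial markers, of which 3 were above background, the sums were 401 and 373. Each sum adds probes that bind differently, so the sums cannot be ranked between cell types. The part of these markers in the lysosomal values was not tested.

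The 36 measured lysosomal genes moved little and, on balance, sat slightly below the rest of the array. Their median difference was −0.09 against 0.10 for all measured genes, and without scaling it was 0.40 against 0.59, so the sign of the median depends on the scaling. The gap of −0.19 between the medians is the same in both by construction, since this scaling shifts every gene of an array alike. Settings that can change the gap include quantile normalization, loess, the deposited values and normexp. They gave −0.12, −0.14, −0.12 and −0.08. Of the 36 genes 30, or 83.3%, lay below the all-gene median. In lists described below, 59.4% of 96 other lysosomal genes, 59.3% of 27 autophagy genes and 67.7% of 31 proteasome genes did. Among all genes of log2 intensity 14 or more the share was 55.6%, and between 10 and 14 it was 49.0%. Below 0 lay 24 of the 36 genes, or 66.7%, beside 38.8% of all genes, and without scaling 2 of the 36 did. Differences ran from −0.65 for *Atp6ap1* to 0.36 for *Arsb*. In bulk RNA, fewer cells that express a gene and less RNA per cell cannot be told apart.

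**Figure D1:**
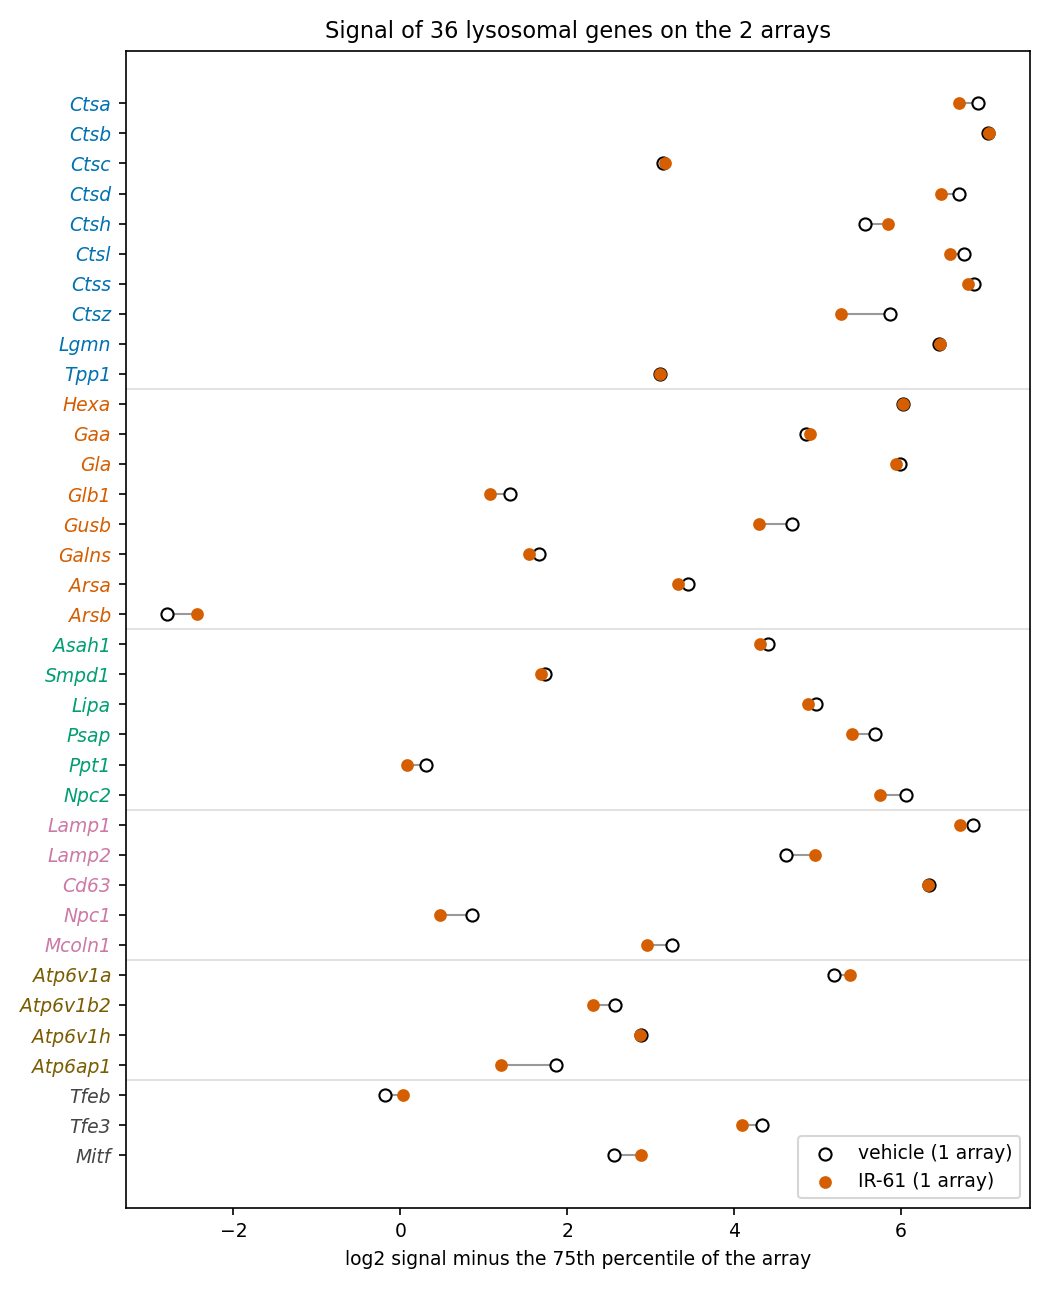
Scaled log2 intensity of each measured lysosomal gene with vehicle (open) and with IR-61 (filled), 1 array each, as log2 intensity minus the 75th percentile of the array, with genes grouped by role. The widest gaps are those of *Atp6ap1* and *Ctsz*, and positions are comparable between the arrays for one gene, not between genes.

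At a limit of 1.5-fold, 2 of the 36 genes were lower with IR-61, *Atp6ap1* and *Ctsz*, beside 5.69% of all measured genes. None was higher by that much, beside 9.79% of all genes. At 2-fold none was lower, beside 1.39% of all genes, and none was higher, beside 1.99%. A finer limit is 2 SDs of the spot noise, by which 13 genes were lower, or 36.1%, beside 14.3% of all genes. By the same limit 5 were higher, or 13.9%, beside 23.7% of all genes. The remaining 18 differed by less than that. In lists described below, 29.2% of 96 other lysosomal genes were lower past 2 SDs and 29.2% higher. For 27 autophagy genes the shares were 29.6% and 25.9%, and for 31 proteasome genes 32.3% and 22.6%. A raised share of lower values was thus not particular to the 36 genes. Their counts depend on the scaling. Over 10 other settings that scale the arrays or use the deposited values, 11 to 17 lysosomal genes were lower past 2 SDs and 2 to 5 higher. Of all genes 12.8% to 18.7% were lower and 18.2% to 27.7% higher in these settings. Without scaling 0 lysosomal genes were lower and 32 higher, beside 2.33% and 65.8% of all genes. Scaling by the median gave 17 lower and 2 higher, *Lamp2* and *Mitf*, beside 18.7% and 18.2% of all genes. The 11 genes lower in each of these 10 settings were *Ctsz*, *Glb1*, *Gusb*, *Psap*, *Npc1*, *Npc2*, *Ppt1*, *Mcoln1*, *Tfe3*, *Atp6v1b2* and *Atp6ap1*, and *Mitf* was higher in each. The noise limit is narrower for bright probes, and 35 of the 36 genes had a mean log2 intensity of 10 or more, so genes of like intensity are given beside them. Among genes of log2 intensity 14 or more, 17.1% of 1621 were lower past 2 SDs and 33.7% higher, while 7 and 3 of the 21 lysosomal genes in that class were. Among genes between 10 and 14, 22.5% of 5884 were lower and 39.5% higher, and 6 and 2 of 14 lysosomal genes were. With this scaling, lower values outnumbered higher ones among the lysosomal genes of both classes, and higher ones outnumbered lower ones among all genes.

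**Figure D2:**
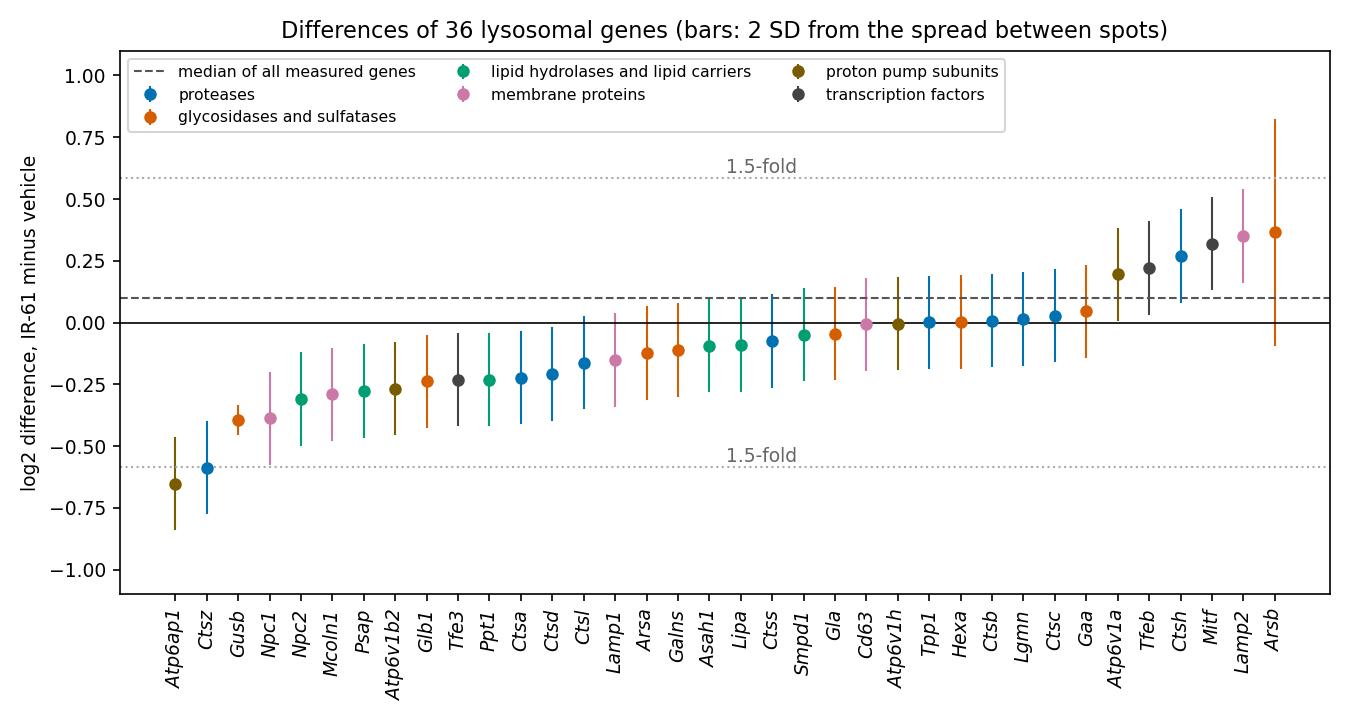
Scaled log2 difference, IR-61 minus vehicle, of the 36 measured lysosomal genes in order, coloured by role. Bars are 2 SDs expected from the spread between spots, the dashed line is the median of all measured genes and the dotted lines mark 1.5-fold. *Atp6ap1* and *Ctsz* lie past the lower dotted line and no gene lies past the upper one.

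Letters of the CLEAR element, by which TFEB, TFE3 and MITF are known to find lysosomal genes, were looked for in the promoters. RefSeq promoters of the assembly GRCm38.p6, from 250 bases before to 50 bases after each start, were given for 30 of the 37 genes. The core CACGTG was in 12 of the 30, or 40.0%, against 2187 of 27025 promoters of all genes, or 8.09%. The 8-base palindrome TCACGTGA, which contains the core, was in 6 of the 30, or 20.0%, against 304 of 27025, or 1.12%. No other stretch was looked for. Both read the same on either strand, so 1 search covers both. The 6 promoters with the 8-base palindrome are shown because the factors known to bind it were measured on the same arrays. The palindrome is in capitals with 10 bases on each side, 5′ to 3′ on the strand of the gene:
*Ctsa* (chr2:164833750-164833777, plus strand): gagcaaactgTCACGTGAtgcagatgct
*Ctsd* (chr7:142387909-142387936, minus strand): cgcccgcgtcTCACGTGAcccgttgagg
*Gla* (chrX:134601216-134601243, minus strand): aagcgattgaTCACGTGAgcatctacgt
*Mcoln1* (chr8:3500463-3500490, plus strand): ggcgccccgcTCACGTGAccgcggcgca
*Atp6v1a* (chr16:44139374-44139401, minus strand): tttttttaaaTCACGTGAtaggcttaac
*Atp6v0d1* (chr8:105566051-105566078, minus strand): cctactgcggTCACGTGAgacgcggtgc

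The palindrome began 4 bases before the annotated start in *Atp6v0d1*, 13 in *Ctsa*, 46 in *Mcoln1*, 99 in *Ctsd*, 132 in *Atp6v1a* and 228 in *Gla*. The other 6 promoters with the core alone were those of *Ctsl*, *Lgmn*, *Lamp1*, *Gaa*, *Glb1* and *Arsa*. The 11 measured genes with the core had a median difference of −0.15, and the 18 measured genes whose promoter lacked it had −0.06. With the 8-base palindrome the median of 5 measured genes was −0.21, against −0.08 for 24 without. The groups overlapped, with differences of −0.29 to 0.20 for genes with the core and −0.65 to 0.36 for those without. A match of letters is a description of the window and not evidence of binding. The element is known from lysosomal promoters and these genes were chosen as lysosomal, so its share is not a result of the arrays.

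Among the proteases, *Ctsz*, an exopeptidase also called cathepsin X, differed most. Its intensity was 73933 for vehicle and 69024 for IR-61, and its scaled difference was −0.59 with a spot SD of 0.094, which is 0.666 times the vehicle level and just past the limit. Of the 36 measured genes, it and *Atp6ap1* were the 2 whose intensity was lower with IR-61 before any scaling. *Ctsa*, which protects β-galactosidase and sialidase in a complex, had intensities of 153348 and 184278 and a difference of −0.22. *Ctsd*, the main aspartic protease of lysosomes, had 130507 and 158549 and a difference of −0.21. Both lay past 2 SDs of spot noise and carry the 8-base palindrome shown above. They were within 2 SDs under loess, under quantile normalization, at −0.073 and −0.083, and in the deposited log2 values, where each gave −0.074. A second *Ctsd* probe gave −0.39, while a second *Ctsa* probe gave 0.04.

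*Ctsh*, an aminopeptidase, was the protease that lay highest, with intensities of 60050 and 101495 and a difference of 0.27. The broad cysteine proteases *Ctsb* and *Ctsl* and the macrophage-rich *Ctss*, which trims the MHC class II invariant chain, differed by 0.0074, −0.16 and −0.07. *Ctsc*, which activates granule proteases, differed by 0.03. The asparaginyl endopeptidase *Lgmn* differed by 0.015 and the tripeptidyl peptidase *Tpp1* by 0.0012. These 6 differences were all within 2 SDs of spot noise. The median of the 10 proteases was −0.04, and 9 of the 10 lay below the all-gene median.

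Among the glycosidases and sulfatases, *Gusb*, the β-glucuronidase of glycosaminoglycan breakdown, had the most spots. Its 10 spots had intensities of 30536 to 34853 for vehicle, with a median of 32806, and of 32796 to 36382 for IR-61, with a median of 35247. After scaling, the vehicle spots lay at 4.60 to 4.79 and the IR-61 spots at 4.21 to 4.36, with means of 4.69 ± 0.05 and 4.30 ± 0.05 (SD over 10 spots of 1 array). The spots overlapped before scaling and did not overlap after it. The difference was −0.39, and 11.3% of all measured genes lay lower. Spots of one array are not replicates of the treatment.

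*Glb1*, the β-galactosidase, had intensities of 3144 and 3742 and a difference of −0.24, also past 2 SDs. The other 6 enzymes of this role were within 2 SDs. *Hexa*, the α-subunit of β-hexosaminidase, differed by 0.0029 and *Gla*, the α-galactosidase, by −0.04. *Gaa*, the acid α-glucosidase of glycogen, gave 0.05. The sulfatases *Galns* and *Arsa* gave −0.11 and −0.12. The sulfatase *Arsb* gave 0.36 from intensities of only 181 and 327, with a spot SD of 0.23. It was the highest difference of the 36 genes and also the least precise. The role had a median of −0.08.

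All 6 lipid hydrolases and lipid carriers lay below 0, between −0.31 and −0.05, with a median of −0.16, although each had a higher intensity with IR-61 before scaling. *Npc2*, the soluble carrier that hands cholesterol to NPC1, had intensities of 84040 and 95116 and a difference of −0.31. *Psap*, the precursor of the saposins that help sphingolipid hydrolases, had 65041 and 75342 and a difference of −0.28. *Ppt1*, which removes palmitate from proteins, had 1568 and 1875 and a difference of −0.23. These 3 were past 2 SDs of spot noise. The acid ceramidase *Asah1* and the acid lipase *Lipa* each gave −0.09, and the acid sphingomyelinase *Smpd1* gave −0.05, all within it.

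Of the 5 membrane proteins 4 lay below 0, and the role had a median of −0.15. That median was 0.0079 under quantile normalization and 0.013 in the deposited values, with *Lamp1* and *Cd63* above 0 in both. *Npc1*, the membrane cholesterol transporter that receives cholesterol from NPC2, had intensities of 2292 and 2459 and a difference of −0.39. *Mcoln1*, the calcium channel TRPML1, had 12021 and 13790 and a difference of −0.29, and is among the genes with the palindrome. *Lamp1*, the most used marker of the lysosomal membrane, gave −0.15 and the tetraspanin *Cd63* −0.0075, both within 2 SDs. *Lamp2*, a close relative of *Lamp1* needed for fusion of autophagosomes, had 31175 and 55740 and lay at 0.35, with 23.8% of all genes higher. Its second probe, listed under another RefSeq transcript, gave 19733 and 21305 and a difference of −0.38. The sign for *Lamp2* therefore depends on the probe.

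The proton pump had the lowest member. *Atp6ap1*, the accessory subunit Ac45, had intensities of 4586 for vehicle and 4094 for IR-61, a difference of −0.65 with a spot SD of 0.094, which is 1.57-fold lower. Its second probe had 2386 and 2072 and gave −0.69. Both probes thus lay past the 1.5-fold limit, and 4.43% of all measured genes lay lower than the first. *Atp6v0d1*, a subunit of the membrane sector, had its only spot marked as non-uniform on the IR-61 array and so has no value among the 36. With that spot kept, its intensities were 10636 and 9564 and its difference −0.64, or 1.56-fold lower.

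Subunits of the catalytic sector, which faces the cytosol and hydrolyses ATP, did not share that size. *Atp6v1b2* had 7542 and 8789 and a difference of −0.27. *Atp6v1h* gave −0.0048. *Atp6v1a*, the catalytic subunit, had 46186 and 74185 and gave 0.20, while its second probe had 36163 and 44907 and gave −0.18. The 4 measured subunits had a median of −0.14, and −0.27 with the spot of *Atp6v0d1* kept.

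The transcription factors went both ways. *Tfeb* had intensities of 1108 and 1811 and a difference of 0.22. *Mitf* had 7472 and 13078 and a difference of 0.32, and its second probe gave 0.31. *Tfe3* had 25432 and 30398 and a difference of −0.23, and its second probe gave −0.57. Each of the 3 lay past 2 SDs of spot noise and none past 1.5-fold. *Tfeb* was within 2 SDs when scaled by the median, at 0.14, by the 75th percentile over detected probes, at 0.18, and under normexp, at 0.13. With a median of 0.22, this was the only role of the 6 whose median lay above that of all genes.

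**Figure D3:**
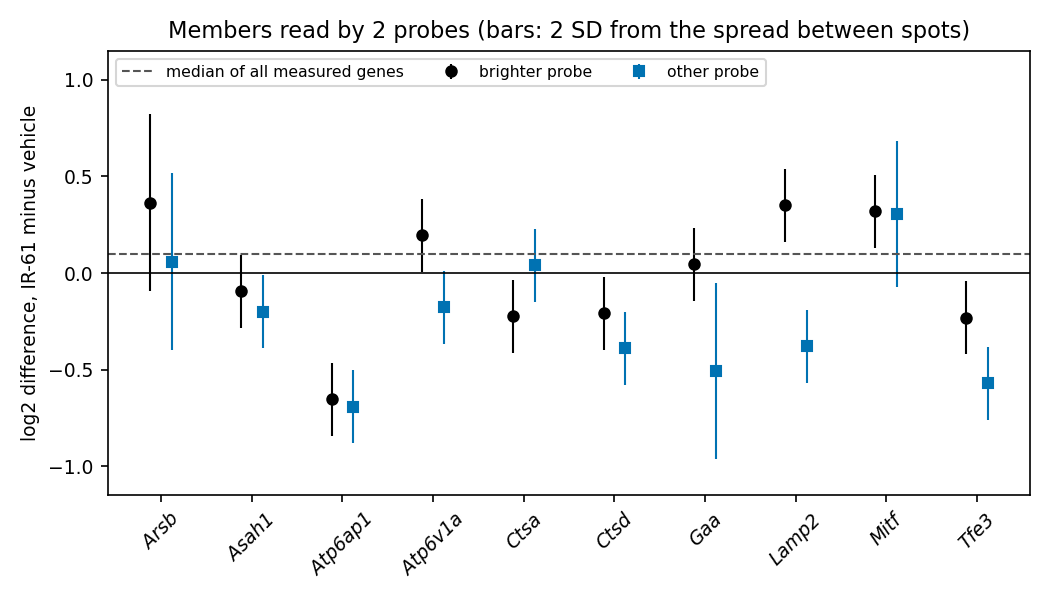
Scaled log2 difference, IR-61 minus vehicle, of both probes of the 10 lysosomal genes that had 2 probes. Black circles are the brighter probe, which gave the value of the gene, blue squares the dimmer one, the dashed line is the median of all measured genes, and bars are 2 SDs expected from the spread between spots. The probes of *Atp6ap1* and *Mitf* nearly coincide, and those of *Lamp2*, *Gaa*, *Atp6v1a* and *Ctsa* lie on opposite sides of 0.

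Different probes of a gene did not always give the same sign. Of the 10 genes with 2 probes, 6 had both on the same side of 0 and 4 had them on opposite sides, *Atp6v1a*, *Ctsa*, *Gaa* and *Lamp2*. For 4 genes, *Atp6v1a*, *Gaa*, *Lamp2* and *Tfe3*, the probes differed by more than 2 SDs of spot noise. The second *Gaa* probe gave −0.51 from intensities of only 119 and 118. *Arsb* gave 0.36 and 0.06, and *Asah1* −0.09 and −0.20.

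Another 98 lysosomal genes were set beside these, of which 96 were measured, and they spread more widely, with an SD over genes of 0.40 against 0.24. Their median was −0.00031, with 8 lower and 7 higher by 1.5-fold, or 8.33% and 7.29%. The other 13 proton pump subunits had a median of −0.15, close to the −0.14 of the 4 above. Among them *Atp6v0c*, the proteolipid of the membrane ring, was lowest at −0.82 and *Atp6v0a1* highest at 0.36. The 28 other hydrolases had a median of 0.11, with 5 lower and 3 higher by 1.5-fold. These are 17.9% and 10.7%, beside 5.69% and 9.79% of all genes. The lower ones included *Naglu* at −0.61 and the acid phosphatase *Acp2* at −0.61. The higher ones were *Ids* at 0.69, *Hyal2* at 0.66 and *Ctsw* at 0.59. Of these, *Acp2* had a second probe at −0.37, and *Ctsw* was dim, with a spot SD of 0.23.

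The 20 other membrane proteins had a median of −0.03, from −0.71 for the chloride exchanger *Clcn7* to 0.31 for the peptide transporter *Abcb9*. The median of the 20 was −0.30 when the probes of a gene were averaged. *Abcb9* was dim, with a spot SD of 0.23. The 19 genes of sorting and fusion had a median of −0.0075 and 1 gene past 1.5-fold each way, or 5.26%. Of all genes 5.69% were lower and 9.79% higher by that much. *Rab7*, the GTPase of late endosomes, had intensities of 6674 and 4263 and was 2.20-fold lower at −1.13. *Sort1*, a sorting receptor, had 4888 and 14156 and lay at 1.05, with a second probe at 0.35.

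The 16 measured genes of nutrient sensing and TFEB control had a median of 0.17. By 1.5-fold none was lower and 3, or 18.8%, were higher, beside 5.69% and 9.79% of all genes. When probes were averaged the median was 0.036, and it was about 0.08 under scaling by the median, quantile normalization and the deposited values. The 3 higher genes encode folliculin and its partners, which act on the Rag GTPases and on the phosphorylation of TFEB and TFE3. *Fnip2* had intensities of 16119 and 52548 and lay at 1.22, or 2.32-fold higher. *Flcn* lay at 0.68, with a second probe at 0.63, and *Fnip1* at 0.66. The kinase *Mtor* was lowest at −0.57, from intensities of only 408 and 385 with a spot SD of 0.23.

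**Figure D4:**
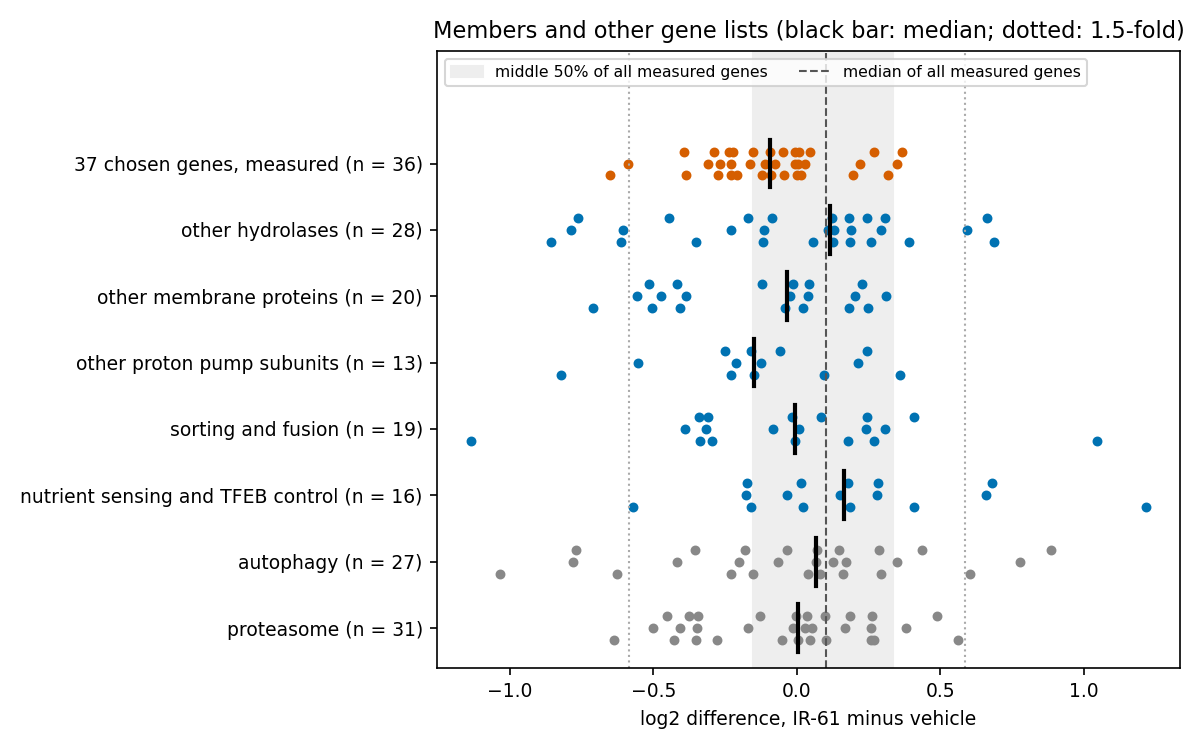
Scaled log2 difference, IR-61 minus vehicle, of each measured gene in the 36 lysosomal genes, in 5 lists of other lysosomal genes and in the autophagy and proteasome lists. Black bars are list medians, the grey band holds the middle 50% of all measured genes and dotted lines mark 1.5-fold. The 36 genes lie between −0.65 and 0.36, and no list median lies past 1.5-fold.

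Genes of neighbouring degradation routes gave a frame. The 27 autophagy genes had a median of 0.07. It was −0.03 when probes were averaged, −0.015 under scaling by the median and −0.010 under normexp. By 1.5-fold 4 were lower and 3 higher, or 14.8% and 11.1%, beside 5.69% and 9.79% of all genes. The lower ones were the cargo receptors *Sqstm1* at −1.04 and *Optn* at −0.78, then *Becn1* at −0.77 and *Atg4b* at −0.63. *Optn* and *Atg4b* were dim, with a spot SD of 0.23. *Wipi2* at 0.89, *Atg10* at 0.78 and the kinase *Ulk1* at 0.60 were higher. The second probes of *Wipi2* and *Atg10* gave −0.19 and −0.48. The 31 proteasome genes had a median of 0.0056, which is also below the 0.10 of all genes. They ran from −0.64 for *Psmd8* to 0.56 for *Psma7*. No difference between the lists was tested, since each condition had 1 array.

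**Figure D5:**
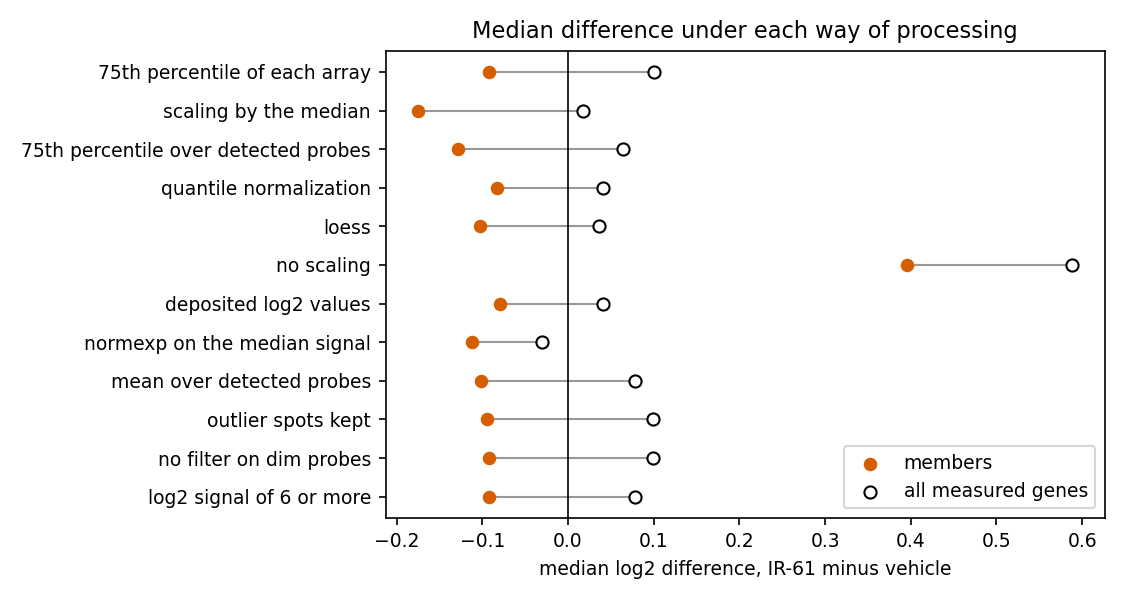
Median log2 difference, IR-61 minus vehicle, of the lysosomal genes (filled) and of all measured genes (open) under the 75th percentile scaling and 11 other ways of processing the same 2 arrays. The filled point lies left of the open one in each row, and both lie above 0 without scaling.

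The lysosomal genes lay below all genes by their median in each setting that was run, but some settings could not change this. Scaling by the median, by either 75th percentile or not at all shifts every gene of an array alike, so each gave −0.19. Over the 75th percentile scaling and the 11 alternatives, the median of the lysosomal genes minus that of all genes ran from −0.19 to −0.08. Of the lysosomal genes 23 to 32 lay below the all-gene median, by setting. The count was 30 with the 75th percentile, 27 under loess and 23 under normexp. It was 24 both under quantile normalization and in the deposited values. The count past 1.5-fold ran from 0 to 3 lower, beside 1.14% to 7.57% of all genes. *Ctsz* dropped out under quantile normalization, loess and the deposited values, both *Ctsz* and *Atp6ap1* did under normexp, at −0.58 and −0.45, and without scaling, at −0.10 and −0.16, and *Atp6v0d1* joined them with outlier spots kept.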

How the data were processed

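The authors hybridized Cy3-labelled cRNA of each culture to an Agilent single-colour mouse array, and both arrays lay on 1 slide and were read in 1 scan. The deposited intensity of each spot was background-subtracted and detrended within the array by Feature Extraction, version 11.0.1.1 in the file headers and 11.0.0.1 in the submitters' processing notes. Deposited 0/1 flags mark outliers, saturated spots and signals clear of the background. The authors also deposited log2 values per probe, used only as an alternative. The dose comes from a figure legend of the study.

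Of 44397 spots per array 43020 were not controls. Outlier spots, 124 for vehicle and 139 for IR-61, were not used, and 0 spots were saturated. Spots of a probe were averaged on the log2 scale and set relative to the 75th percentile of their array (10.30 and 10.79). Probes were named by RefSeq accession through a gene table of GRCm38.p6, used for names because the array design names another assembly. This named 27224 of 39419 probes, for 20655 genes. A gene took its brightest probe, and was measured where that probe was well above background on both arrays. Of all probes 77.6% were so for vehicle and 81.2% for IR-61. The spot SD came from 399 probes printed 10 times, by log2 intensity below 6, 6 to 10 and 10 or more. The number of arrays limits precision.

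The genes, lists and limits were chosen with earlier results of these data known. The text names every chosen gene and, of the other lists, genes past 1.5-fold and the highest and lowest, except some hydrolases that are not reported here. Alternatives were other scalings (median, 75th percentile over detected probes, quantile, loess, none), the deposited values, normexp with an offset of 50, the mean over probes, outlier spots kept, other filters and a 2-fold limit. Normexp used the median signal of each spot in place of the planned mean signal, and 4 IR-61 spots with background above signal got the median background. The steps were tested on simulated arrays. Python 3.11.15, numpy 2.4.6, pandas 2.3.3, statsmodels 0.14.6, matplotlib 3.10.9, R 4.3.3 and limma 3.58.1 were used.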

Additional observations from a re-analysis of the deposited data

How the results depend on the processing

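Scaling was the choice with the widest effect. Without scaling the median of the lysosomal genes was 0.40 and 6 genes were higher by 1.5-fold and none lower, *Arsb*, *Atp6v1a*, *Ctsh*, *Lamp2*, *Mitf* and *Tfeb*, while 50.5% of all genes were higher by that much. The median minus that of all genes was −0.082 under normexp. The count of lysosomal genes lower by 1.5-fold was 1 under quantile normalization, loess and the deposited log2 values, each time *Atp6ap1*. Of all genes 6.85%, 6.96% and 6.86% were lower there. The count was 0 under normexp, without scaling and at the 2-fold limit, beside 4.46%, 1.14% and 1.39% of all genes. With outlier spots kept it was 3, since *Atp6v0d1* was added, beside 5.7% of all genes. Over all genes, 5.69% were lower and 9.79% higher by 1.5-fold, against 7.57% and 7.01% with scaling by the median. *Lamp2* and *Atp6v1a* lay at −0.014 and 0.0097 when probes were averaged, since their probes have opposite signs. No paired analysis was possible because there was only 1 array per condition, and for the same reason no replicate could be left out. The spot SD does not cover the spread between cultures, which was not measured.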
